A study of Homo sapiens with 40 samples.

Results

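A set of 10 genes that cells switch on when the RAS-to-ERK branch of the MAP kinase cascade is active was followed in melanoma cells exposed to inhibitors of PI3-kinase. They were DUSP4, DUSP5, DUSP6, SPRY2, SPRY4, SPRED1, SPRED2, ETV4, ETV5 and PHLDA1, the feedback and output genes of that branch, and every probe set whose only gene symbol was one of the 10 was taken. The 10 genes were covered by 28 probe sets, out of 19775 genes and 54675 probe sets on the array. All 28 lay above the filter on dim probe sets and were tested.

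The cells were A2058, an established human melanoma line, grown in serum-containing medium and treated once for 24 h. The 9 treatments were BKM120 at levels labelled IC30, IC50 and IC90 (max), BEZ235 at IC50, IC90 and max, and GDC0941, spelled GCD0941 in the labels, at IC50, IC90 and max; the control was DMSO. Each of the 10 groups had 4 arrays labelled as biological replicates, 40 arrays in all. BKM120 (buparlisib) and GDC0941 (pictilisib) inhibit class I PI3-kinases, and BEZ235 (dactolisib) inhibits class I PI3-kinases and mTOR. Neither molar doses nor the response to which the IC levels refer were at hand, so levels were matched by name only and BKM120 IC90 (max) served as the IC90 of BKM120. Nothing in the sources says that the replicates were separate cultures, so p-values measure the spread between these arrays, which may be technical.

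Active ERK phosphorylates transcription factors that turn on 2 kinds of genes. Feedback genes encode proteins that damp the same cascade: DUSP phosphatases remove phosphate from ERK and related kinases, Sprouty proteins interrupt the signal between growth factor receptors and RAF, and SPRED proteins lower the amount of active RAS. Output genes carry the programme on, among them the PEA3-type ETS factors ETV4 and ETV5, and the levels of both kinds of mRNA are widely used in melanoma, a tumour that commonly holds this cascade active through mutation, as a reading of ERK activity. PI3-kinase acts in a parallel branch downstream of many of the same receptors.

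The lineage was checked with 7 melanocytic markers, MITF, PMEL, MLANA, TYR, SOX10, S100B and S100A1, whose mean signals stood between the 90.9th and 98.7th percentile of all probe sets. Markers of blood, endothelial and fibroblast cells had mean signals of at most 34.5, and of the epithelial markers EPCAM had 3.52, CDH1 4.16, KRT8 45.5 and KRT18 1040, the last 2 read by probe sets of a design that can cross-hybridise. A single array stood apart: in BEZ235 IC50 replicate 3 the log2 ratio of the 3′ to the 5′ GAPDH probe set was 1.77, against 0.0696 to 0.337 on the other 39 arrays, and its median correlation with its own group was 0.9562 against 0.9919 to 0.9954. It was kept in the fit of 40 arrays, and results are also given from the other 39. The values are single-factor scaled array intensities of bulk RNA, in which fewer cells expressing a gene and less RNA per cell cannot be told apart.

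The changes of the 10 genes were small at every level of the 3 compounds. Each gene is given by its probe set of highest mean signal, its main probe set, and changes are differences of mean log2(signal + 16). Of the 90 changes against DMSO (10 genes, 9 treatments), 17 were called at an adjusted p under 0.05 by limma, 13 rises and 4 falls, and none reached 0.5 on the log2 scale. Of all tested probe sets 9.20% to 45.2% were called, depending on the treatment. The largest rise was 0.44 (SPRY2, BEZ235 max) and the largest fall was -0.45 (ETV4, GDC0941 max), and the 95% intervals of all 90 lay between -0.66 and 0.60. Without the degraded array 27 of the 90 were called, 21 rises and 6 falls, among them all 17, and the extremes were the same 2 values. In that fit 15.5% to 52.0% of all tested probe sets were called, depending on the treatment. The range of a gene's mean over the 10 groups had a median of 0.38 for the 10 genes, against 0.49 for all 32768 tested probe sets and 0.47 for the 15298 of them with a mean log2 signal above 7.

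**Figure D1:**
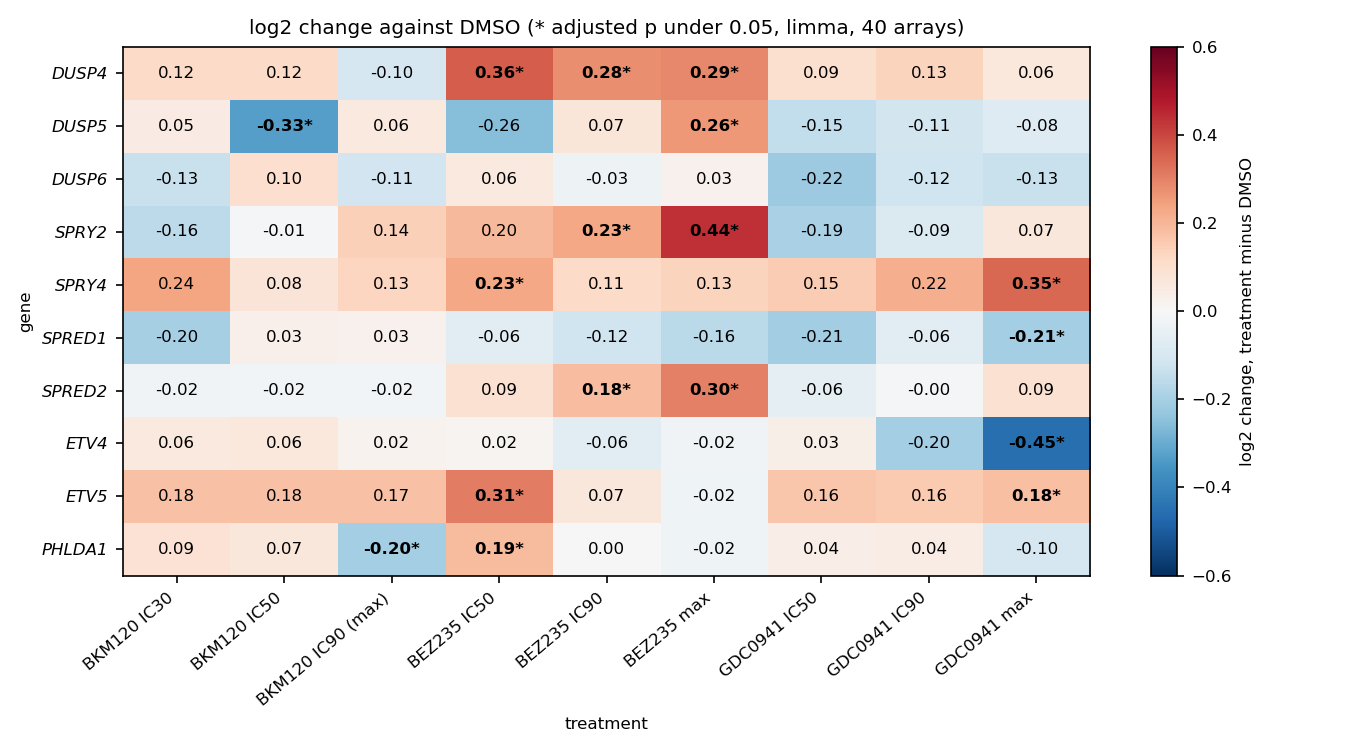
Log2 change of each of the 10 genes (rows, main probe set) against DMSO in each of the 9 treatments (columns), with red for higher and blue for lower in the treatment. Bold values with an asterisk passed an adjusted p of 0.05 in the fit of 40 arrays, 17 of 90, and all lie between -0.45 and 0.44. Of all tested probe sets 9.20% to 45.2% passed it, depending on the treatment.

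With BKM120 none of the 10 genes was called by limma at IC30 by main probe set, where 12.6% of all tested probe sets were called (6.91% higher and 5.69% lower). There 3 had an unadjusted p under 0.05. At IC50 1 was called, DUSP5, which fell, beside 12.5% of all probe sets (6.83% higher and 5.66% lower). At IC90 (max) 1 was called, PHLDA1, which fell, beside 30% (16.4% higher and 13.6% lower). With 39 arrays these counts were 3 (beside 19.7%), 2 (20.5%) and 2 (38.2%), the added genes being SPRY4, SPRED1 and ETV5 at IC30 and ETV5 at both other levels.

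With BEZ235 each call of a main probe set was a rise. At IC50 DUSP4, SPRY4, ETV5 and PHLDA1 rose, 4 of 10 beside 35.0% of all tested probe sets (16.1% higher and 18.9% lower). At IC90 DUSP4, SPRY2 and SPRED2 rose, 3 of 10 beside 42.7% (22.5% higher and 20.2% lower). At max DUSP4, DUSP5, SPRY2 and SPRED2 rose, 4 of 10 beside 45.2% (23.9% higher and 21.3% lower). By main probe set none of the 10 was called as a fall at any level of BEZ235. The same genes were called with 39 arrays, beside 32.6%, 50.0% and 52.0%. Of all 28 probe sets of the 10 genes, 1, 1 and 3 were called as falls over these levels with 40 arrays. These were probe sets of ETV4 and ETV5, beside 18.9%, 20.2% and 21.3% lower among all tested probe sets.

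GDC0941 gave no call of a main probe set by limma at IC50, beside 9.20% of all probe sets (5.15% higher and 4.06% lower). There 4 genes had an unadjusted p under 0.05. No main probe set was called at IC90, beside 16.9% (9.24% higher and 7.65% lower), where 3 had an unadjusted p under 0.05. Of all 28 probe sets of the 10 genes, 1 was called at each of these levels, a rise of 203349_s_at of ETV5. At max SPRY4 and ETV5 rose and SPRED1 and ETV4 fell, 4 of 10 beside 33.3% (18% higher and 15.3% lower). With 39 arrays 2 genes were called at IC50, where ETV5 rose and SPRED1 fell (beside 15.5%). In that fit DUSP4, SPRY4 and ETV5 rose at IC90, 3 of 10 (24.6%), and the same 4 were called at max (40.8%). The median absolute log2 change of the 10 genes was 0.11 at BKM120 IC90 (max), 0.15 at BEZ235 max and 0.12 at GDC0941 max. Over all tested probe sets it was 0.17, 0.23 and 0.18, but the main probe sets are the brightest of their genes and this measure was not matched for signal.

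**Figure D2:**
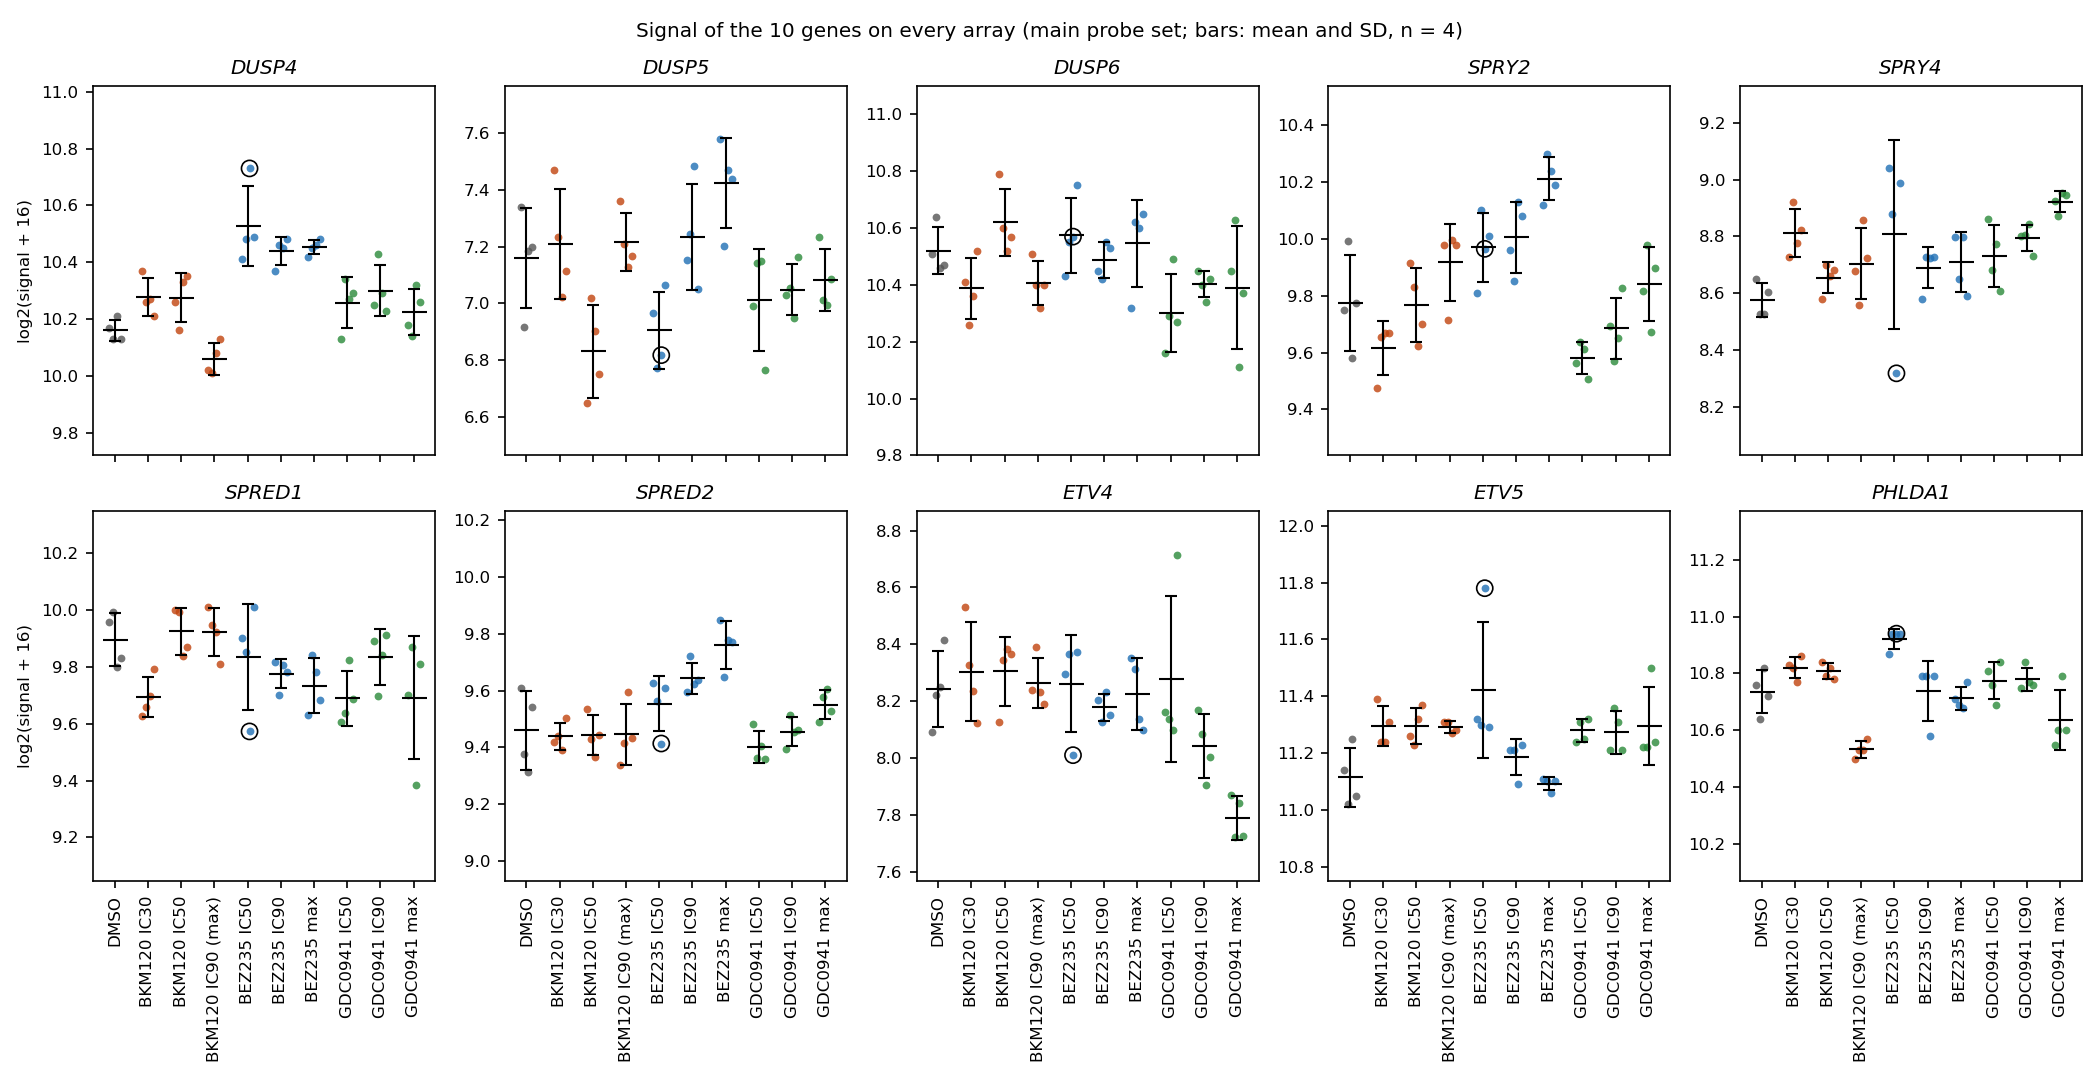
Log2(signal + 16) of each of the 10 genes on every array (points), by group from DMSO at the left through rising levels of BKM120, BEZ235 and GDC0941, with mean and SD of 4 arrays (bars); the ring marks the degraded array, BEZ235 IC50 replicate 3. The points of most groups overlap those of DMSO, and among the exceptions are DUSP4 at all 3 levels of BEZ235, SPRY2 and SPRED2 at BEZ235 max, SPRY4 and ETV4 at GDC0941 max, and PHLDA1 at BKM120 IC90 (max).

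DUSP4, a nuclear phosphatase that acts on ERK and on stress-activated kinases, was the only gene of the set called at all 3 levels of BEZ235. Its signals were 1342.4, 1410.2, 1678.4 and 1420.1 at BEZ235 IC50, 1309.5, 1388.9, 1378.7 and 1416.2 at IC90 and 1354.2, 1381.6, 1388.4 and 1416.8 at max, against 1137.3, 1106.2, 1171.2 and 1106.7 in DMSO. All 12 BEZ235 arrays lay above all 4 DMSO arrays. The log2 change was 0.36 ± 0.06 (SE) at IC50, with an adjusted p of 5.35e-06 from limma, 0.28 ± 0.06 at IC90 (adjusted p 0.000135) and 0.29 ± 0.06 at max (adjusted p 6.54e-05). Its highest value, 1678.4, came from the degraded array, and without it the IC50 change was 0.30 ± 0.05 (adjusted p 2.79e-05).

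With the other compounds DUSP4 was not called against DMSO when all arrays were fitted. Without the degraded array DUSP4 was called as a rise at GDC0941 IC90 by its main probe set. At BKM120 IC90 (max) it had 1024.2, 1015.5, 1065.9 and 1100.9, each below the lowest DMSO array, with a log2 change of -0.10 and a 95% interval of -0.22 to 0.01. At GDC0941 max it had 1147.1, 1115.5, 1260.7 and 1207.5, which overlap DMSO, with a change of 0.06 and an interval of -0.05 to 0.18. Its second probe set, 226034_at, also rose at the 3 levels of BEZ235 (log2 changes 0.48, 0.36 and 0.40) and was called, unlike the main one, at BKM120 IC30 and IC50 (0.20 and 0.19) and at GDC0941 max (0.22), whereas the third, 204015_s_at, was not called at any level, with 0.25, 0.03 and 0.05 over rising levels of BEZ235. Without the degraded array the IC50 changes were 0.36 for 226034_at and 0.08 for 204015_s_at, and 226034_at was also called at GDC0941 IC50 and IC90 (0.16 and 0.14).

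DUSP5, a nuclear phosphatase of ERK, was called in 2 treatments, in opposite directions, at a mean signal of 123.8 over all arrays. At BKM120 IC50 it had 84.4, 113.6, 103.8 and 91.8 and at BEZ235 max 175.3, 131.3, 161.2 and 157.3, against 145.9, 104.9, 129.6 and 130.8 in DMSO. Both groups overlap DMSO. By limma it fell at BKM120 IC50 by 0.33 on the log2 scale (SE 0.11, adjusted p 0.0405) and rose at BEZ235 max by 0.26 (SE 0.11, adjusted p 0.0477). Each call was lost in 6 of the 8 fits that left out 1 array of the 2 groups. For BKM120 IC50 these left out DMSO replicate 1, 3 or 4 or BKM120 IC50 replicate 1, 3 or 4, with changes of -0.35 to -0.27 and adjusted p of 0.0526 to 0.154. For BEZ235 max they left out DMSO replicate 2, 3 or 4 or BEZ235 max replicate 1, 3 or 4, with changes of 0.18 to 0.28 and adjusted p of 0.0625 to 0.21.

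DUSP6, the cytoplasmic ERK phosphatase that is often read as the nearest mRNA gauge of ERK activity, was not called against DMSO in any of the 9 treatments by its main probe set. The highest levels gave 1440.7, 1333.9, 1263.9 and 1331.8 with BKM120 IC90 (max), 1259.9, 1557.4, 1538.1 and 1594.2 with BEZ235 max, and 1380.8, 1566.0, 1087.8 and 1305.2 with GDC0941 max, against 1442.1, 1581.4, 1396.5 and 1401.3 in DMSO. All 3 groups overlap DMSO, and the log2 changes were -0.11, 0.03 and -0.13, with 95% intervals of -0.28 to 0.05, -0.14 to 0.20 and -0.30 to 0.04. The lowest change was -0.22 at GDC0941 IC50 (adjusted p 0.0948 from limma). Of its other probe sets, 208892_s_at rose at BEZ235 IC50 by 0.22 (adjusted p 0.0017), and no other value of the pair was called against DMSO in the fit of 40 arrays. The second of the pair, 208893_s_at, had 835.3, 788.7, 513.1 and 726.8 at BEZ235 IC50, against 638, 594.8, 595.3 and 623.1 in DMSO. The degraded array, at 513.1, was below every DMSO array and the other 3 were above them all. The change was 0.20 (adjusted p 0.0605) with that array and 0.35 (adjusted p 1.27e-05, limma) without it, and with 39 arrays this probe set was also called at BKM120 IC90 (max) (-0.16) and GDC0941 IC50 (-0.22).

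SPRY2, a Sprouty inhibitor of receptor signalling to RAS and RAF, showed the largest rise of the set. It had 1093.3, 1247.2, 1191.9 and 1153.7 at BEZ235 max, 979.9, 908.0, 1102.5 and 1069.5 at BEZ235 IC90, against 844.5, 1001.5, 750.4 and 859.8 in DMSO. The max arrays lay above every DMSO array, while the IC90 arrays overlap DMSO. The rise at max was 0.44 ± 0.08 (SE, adjusted p 2.82e-05 from limma), 1.35-fold on the scale of signal + 16, and that at IC90 was 0.23 ± 0.08 (adjusted p 0.0201). The IC90 call was lost without DMSO replicate 3, BEZ235 IC90 replicate 3 or BEZ235 IC90 replicate 4, with changes of 0.17 to 0.21 and adjusted p of 0.0633 to 0.116.

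Neither BKM120 nor GDC0941 gave a called change of SPRY2. GDC0941 IC50 had 740.8, 780.3, 766.1 and 712.1, overlapping the lowest DMSO array, with a change of -0.19 (95% interval -0.36 to -0.03, adjusted p 0.142 from limma). GDC0941 max had 886.1, 992.6, 800.1 and 939.0, a change of 0.07. In the order of group means the 3 BEZ235 levels came first, max before IC90 before IC50, and DMSO was 6th; of the 9 neighbouring pairs, 1 (BEZ235 max and IC90) differed by more than the larger of the pair's SDs.

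SPRED2, a membrane-associated inhibitor of RAS activation, rose at the same 2 levels of BEZ235 as SPRY2. It had 905.9, 785.9, 861.9 and 857.6 at BEZ235 max and 757.6, 828.4, 772.6 and 779.6 at BEZ235 IC90, against 765.3, 649.3, 620.1 and 730.3 in DMSO. All 4 max arrays lay above the DMSO arrays, and 1 of the IC90 arrays lay below the highest DMSO array. The log2 change was 0.30 ± 0.06 (SE) at max (adjusted p 9.75e-05 from limma) and 0.18 ± 0.06 at IC90 (adjusted p 0.0141). The IC90 call was lost without DMSO replicate 2, DMSO replicate 3 or BEZ235 IC90 replicate 2, with changes of 0.13 to 0.16 and adjusted p of 0.0559 to 0.091. Its changes with BKM120 and GDC0941 lay between -0.06 and 0.09, with no call, and its other probe sets, with mean signals of 18.3 and 7.03, were not called in any treatment with 40 arrays. With 39 arrays 1 value of them was called, a fall of 0.29 for 214026_s_at at BKM120 IC90 (max).

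The promoters of SPRY2 and SPRED2 are printed because both genes rose at the 2 upper levels of BEZ235. Each window runs from 250 bases before to 50 bases after the most upstream start in the RefSeq table (GRCh38.p14), which held windows for 6 of the 10 genes, 9 windows in all. The sequences are given 5′ to 3′ on the gene's strand, and capitals mark matches on either strand to GGGCGG (the GC box) or TGACG (the core of the cAMP response element). The first lies at chr13:80341077-80341376 and the second at chr2:65432550-65432849, both on the minus strand.
SPRY2: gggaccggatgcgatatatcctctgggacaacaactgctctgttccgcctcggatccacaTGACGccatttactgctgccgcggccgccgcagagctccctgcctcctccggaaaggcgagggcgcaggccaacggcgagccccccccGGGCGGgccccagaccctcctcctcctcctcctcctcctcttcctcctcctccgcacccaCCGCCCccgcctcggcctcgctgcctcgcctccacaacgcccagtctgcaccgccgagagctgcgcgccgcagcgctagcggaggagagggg
SPRED2: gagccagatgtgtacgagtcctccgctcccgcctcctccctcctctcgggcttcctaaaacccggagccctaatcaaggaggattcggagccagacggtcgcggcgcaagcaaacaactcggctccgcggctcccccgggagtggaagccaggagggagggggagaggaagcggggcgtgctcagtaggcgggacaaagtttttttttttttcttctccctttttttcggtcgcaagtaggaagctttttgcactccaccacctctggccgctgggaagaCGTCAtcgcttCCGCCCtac
Both windows hold both motifs. Of all 35116 windows of that length in the table, 45% hold GGGCGG and 24.6% hold TGACG; the ETS core CCGGAAG (10.3% of windows) and the AP-1 site TGANTCA (7.71%) were also searched and are not in these 2 windows. Among the 9 windows of the set, 6 hold GGGCGG and 3 hold TGACG. The window of SPRY4, not printed, also holds both, and SPRY4 was not called at BEZ235 IC90 or max. The AP-1 site is in 1 of the 9 windows, another window of SPRED2, not printed, with 2 matches. The 4 motifs, which do not overlap each other in the printed windows, were chosen with results known. The matches are a description of letters, not of binding.

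SPRY4, another Sprouty protein, had its lowest group mean in DMSO. With 40 arrays its highest group mean was at GDC0941 max, and without the degraded array it was at BEZ235 IC50. It had 469.3, 452.1, 479.1 and 476.5 at GDC0941 max, against 385.7, 352.7, 352.8 and 372.9 in DMSO, and the groups do not overlap. The rise was 0.35 ± 0.09 on the log2 scale (SE, adjusted p 0.00292 from limma). Across the levels of GDC0941 its change was 0.15 at IC50, 0.22 at IC90 and 0.35 at max, of which only max was called in the fit of 40 arrays.

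With BEZ235 IC50 SPRY4 had 510.4, 455.1, 303.2 and 491.6, where the degraded array was the lowest of all and the other 3 lay above DMSO. The change was 0.23 (adjusted p 0.047) with that array and 0.39 without it (adjusted p 9.05e-06, limma). The call with all 40 arrays was lost in 6 of 8 fits that left out 1 array, namely DMSO replicate 2, 3 or 4 or BEZ235 IC50 replicate 1, 2 or 4, with changes of 0.15 to 0.24 and adjusted p of 0.066 to 0.211. At BKM120 IC30 it had 407.3, 469.0, 422.5 and 437.2, all above DMSO, with a change of 0.24 (adjusted p 0.087) that was called with 39 arrays.

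SPRED1, the other SPRED protein of the set, fell at GDC0941 max by 0.21 on the log2 scale (SE 0.08, adjusted p 0.0492 from limma). It had 815.8, 920.1, 652.1 and 881.0 at GDC0941 max and 978.7, 1003.0, 876.2 and 895.5 in DMSO. The groups overlap, and replicate 3 of GDC0941 max was far below the rest. The log2 3′ to 5′ GAPDH ratio of that array, 0.337, was the highest of the 39 arrays other than the degraded one. Its log2 3′ to 5′ ACTB ratio, 1.06, lay within the 0.66 to 1.21 of those 39 arrays. Its median correlation with its own group, 0.9933, also lay within their range of 0.9919 to 0.9954. Without GDC0941 max replicate 3 the change was -0.10 (adjusted p 0.345, limma). The call was also lost without GDC0941 max replicate 1 or DMSO replicate 1, 2 or 4 (changes of -0.23 to -0.17, adjusted p of 0.0515 to 0.142). Its second probe set, 235074_at, rose at GDC0941 max by 0.30 (adjusted p 0.0274), so that these 2 of its 3 probe sets had opposite signs. The third, 244439_at, had 337, 365.1, 28.6 and 363 at BEZ235 IC50, against 333.9, 334.8, 323.4 and 363.5 in DMSO, with the low value on the degraded array. It was not called in any treatment with 40 arrays, and without that array it fell at BKM120 IC50, BEZ235 IC90, BEZ235 max and GDC0941 IC50 (-0.26, -0.30, -0.36 and -0.19) and rose at BKM120 IC90 (max) (0.16). None of the 9 neighbouring pairs in its order of group means differed by more than the larger SD.

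ETV4, an ETS transcription factor of the PEA3 group, showed the largest fall, and only GDC0941 max was called. It had 218.1, 195.2, 213.1 and 195.4 at GDC0941 max, against 256.7, 282.1, 288.2 and 325.1 in DMSO. Every GDC0941 max array lay below every DMSO array. The log2 change was -0.45 ± 0.10 (SE, adjusted p 0.000624 from limma), or 27.0% lower on the scale of signal + 16. The series of GDC0941 gave 0.03 at IC50, -0.20 at IC90 (272.0, 255.3, 223.7 and 240.9, adjusted p 0.192) and -0.45 at max. In the order of means these IC90 and max groups were the lowest 2, each separated from its upper neighbour by more than the larger SD. Its other probe set, 1554576_a_at, had 122.3, 115.0, 97.2 and 120.8 at GDC0941 max against 165.4, 145.3, 138.7 and 146.9 in DMSO and fell by 0.35 (adjusted p 0.0297). It also fell at BEZ235 IC50 by 0.34 (adjusted p 0.0351), where the degraded array had 68.3 and the other 3 had 128.9 to 146.6, against 138.7 to 165.4 in DMSO. Without that array the change was -0.13 (adjusted p 0.349, limma) and no call remained at BEZ235 IC50, while a fall of 0.25 at BEZ235 IC90 was called (adjusted p 0.0177).

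ETV5, the close relative of ETV4, rose at BEZ235 IC50 and at GDC0941 max, where ETV4 fell. Its main probe set, 230102_at, had 2534.3, 2503.9, 3511.0 and 2481.4 at BEZ235 IC50 and 2375.8, 2368.9, 2880.8 and 2409.1 at GDC0941 max, against 2241.1, 2067.4, 2423.9 and 2100.6 in DMSO. In both treated groups replicate 3 was far above the rest. That of BEZ235 IC50 is the degraded array, and that of GDC0941 max had the next highest log2 3′ to 5′ GAPDH ratio (0.337). The ACTB ratio of the latter, 1.06, lay within the range of the arrays other than the degraded one (0.66 to 1.21). The change was 0.31 ± 0.07 (SE, adjusted p 0.000907 from limma) at BEZ235 IC50, and 0.18 ± 0.05 (adjusted p 0.00807) without the degraded array. At GDC0941 max it was 0.18 ± 0.07 (adjusted p 0.0462), and 0.11 (adjusted p 0.251) without replicate 3; that call was also lost without DMSO replicate 1, 2 or 4 (0.15 to 0.19, adjusted p 0.0634 to 0.141). The 3 levels of BKM120 gave 0.18, 0.18 and 0.17, called only with 39 arrays.

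The 5 probe sets of ETV5 disagreed with each other under BEZ235 and at BKM120 IC90 (max). At BEZ235 IC90 the probe set 231083_at, with a mean signal of 63.1 over all arrays, had 34.3, 37.8, 41.9 and 36.0, against 84.0, 81.2, 65.8 and 70.5 in DMSO, a fall of 0.77 with no overlap (adjusted p 8.72e-07, limma). At BEZ235 max it fell by 0.76 and 203348_s_at by 0.53, with 257.3, 231.8, 235.9 and 243.2 against 409.1, 385.9, 326.5 and 315.1 in DMSO for the second. The main probe set gave 0.07 and -0.02 at these levels. The probe set 203349_s_at fell by 0.15 at BEZ235 max yet rose by 0.24 at BEZ235 IC50 and by 0.14 to 0.16 at the 3 levels of BKM120. It also rose at GDC0941 IC50 (0.175, adjusted p 0.0149, limma) and IC90 (0.196, adjusted p 0.00322). At BKM120 IC90 (max), where it rose by 0.15, 231083_at fell by 0.35 (adjusted p 0.0168, limma).

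PHLDA1, a pleckstrin-homology-like protein induced by growth factor and stress signals, had the smallest SE of the set. It had 1435.2, 1464.8, 1460.8 and 1506.2 at BKM120 IC90 (max) and 1859.9, 1947.4, 1953.2 and 1950.3 at BEZ235 IC50, against 1714.1, 1583.4, 1795.9 and 1672.6 in DMSO. The first group lay wholly below DMSO and the second wholly above it. It fell by 0.20 on the log2 scale at BKM120 IC90 (max) (SE 0.05, adjusted p 0.00122 from limma) and rose by 0.19 at BEZ235 IC50 (SE 0.05, adjusted p 0.00243). At BEZ235 IC90 and max the changes were 0.00097 and -0.02.

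The 6 probe sets of PHLDA1 were not uniform either. The fall with BKM120 IC90 (max) was also called by 217999_s_at, at -0.34 (adjusted p 0.0135, limma), whereas 217997_at and 217996_at gave 0.09 and 0.07 there. With BEZ235 those 2 rose at all 3 levels, by 0.35, 0.33 and 0.25 for 217997_at and by 0.29, 0.25 and 0.17 for 217996_at. At GDC0941 max 217997_at rose by 0.24 and the main probe set gave -0.10, not called. Over all 10 genes the 18 further probe sets gave 162 changes against DMSO, of which 30 were called, 22 rises and 8 falls, between -0.77 and 0.48. Depending on the treatment, the fit of all arrays called 9.20% to 45.2% of all tested probe sets. Without the degraded array that share was 15.5% to 52.0%. In that second fit 52 of the 162 changes were called, 35 rises and 17 falls, between -0.77 and 0.57, among them 29 of the 30. The highest of these was 218000_s_at of PHLDA1 at BEZ235 IC50, with 345.1, 340.1, 78.2 and 340.8 against 232.9, 216.1, 224.2 and 229.1 in DMSO, where 78.2 came from the degraded array. Its change was 0.09 (adjusted p 0.789) with that array and 0.57 without it (adjusted p 1.95e-06, limma).

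**Figure D3:**
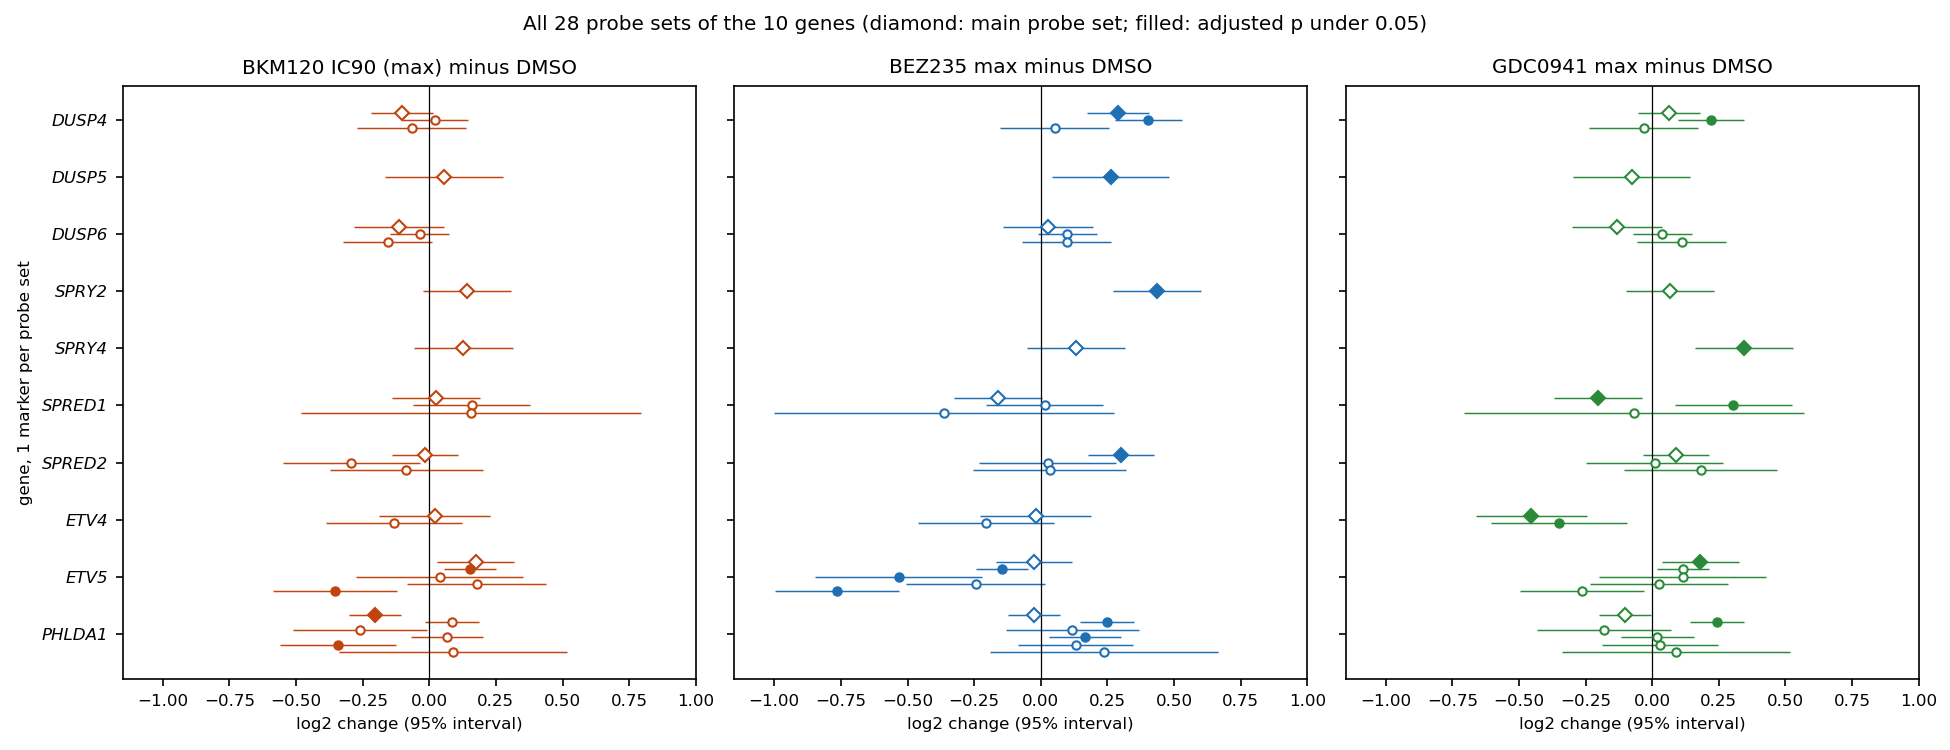
Log2 change against DMSO with its 95% interval for all 28 probe sets of the 10 genes, at the highest level of BKM120 (left), BEZ235 (middle) and GDC0941 (right); diamonds are the main probe sets and filled markers passed an adjusted p of 0.05. ETV5 spreads from -0.76 to -0.02 under BEZ235 max, and SPRED1 has called probe sets on both sides of 0 at GDC0941 max.

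The compounds were then set against each other at levels of the same name. At the highest level of each, BEZ235 differed from GDC0941 in 6 of the 10 genes, beside 26.3% of all tested probe sets. DUSP4 (0.23), DUSP5 (0.34), SPRY2 (0.37), SPRED2 (0.21) and ETV4 (0.44) were higher with BEZ235 and ETV5 (-0.21) was lower, as BEZ235 minus GDC0941 on the log2 scale. The ETV4 difference had an SE of 0.10 and an adjusted p of 0.00125 from limma, and that of SPRY2 an SE of 0.08 and an adjusted p of 0.000562. In DUSP4, SPRY2, SPRED2 and ETV4 all BEZ235 arrays lay above all GDC0941 arrays. The DUSP5 call was lost without BEZ235 max replicate 1 or GDC0941 max replicate 3 (0.29 and 0.31) and the ETV5 call without BEZ235 max replicate 3 or GDC0941 max replicate 3 (-0.19 and -0.14).

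BKM120 at IC90 (max) differed from BEZ235 at max in 5 of the 10 genes, beside 40.7% of all probe sets. DUSP4 (-0.39), SPRY2 (-0.29), SPRED2 (-0.32) and PHLDA1 (-0.18) were lower with BKM120 and ETV5 (0.20) was higher, with no overlap of arrays in any of the 5, and the ETV5 call was lost without BEZ235 max replicate 3 (0.19, adjusted p 0.056 from limma). Against GDC0941 at max it differed in 3 of 10, beside 29.0%: ETV4 (0.47) and SPRED1 (0.23) were higher with BKM120 and DUSP4 (-0.17) was lower. Of these, the ETV4 call held in every fit that left out 1 array. That of SPRED1 was 0.13 without GDC0941 max replicate 3 (adjusted p 0.232) and was lost in 4 other such fits, without GDC0941 max replicate 1 or BKM120 IC90 (max) replicate 1, 2 or 3. That of DUSP4 was lost without BKM120 IC90 (max) replicate 1 or 2 or GDC0941 max replicate 3 or 4 (-0.16 to -0.14).

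The genes with no called difference at the highest levels still had intervals of some width. The difference of SPRY4 was -0.22 between BKM120 and GDC0941 (95% interval -0.40 to -0.03, adjusted p 0.0703 from limma) and -0.21 between BEZ235 and GDC0941 (-0.40 to -0.03, adjusted p 0.0815). That of DUSP6 was -0.14 between BKM120 and BEZ235 (-0.31 to 0.03), 0.02 between BKM120 and GDC0941 (-0.15 to 0.19) and 0.16 between BEZ235 and GDC0941 (-0.01 to 0.33). With 39 arrays the counts at the highest levels were 7 for BEZ235 against GDC0941 (beside 34.3%), 6 for BKM120 against BEZ235 (48.1%) and 4 for BKM120 against GDC0941 (36.2%).

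**Figure D4:**
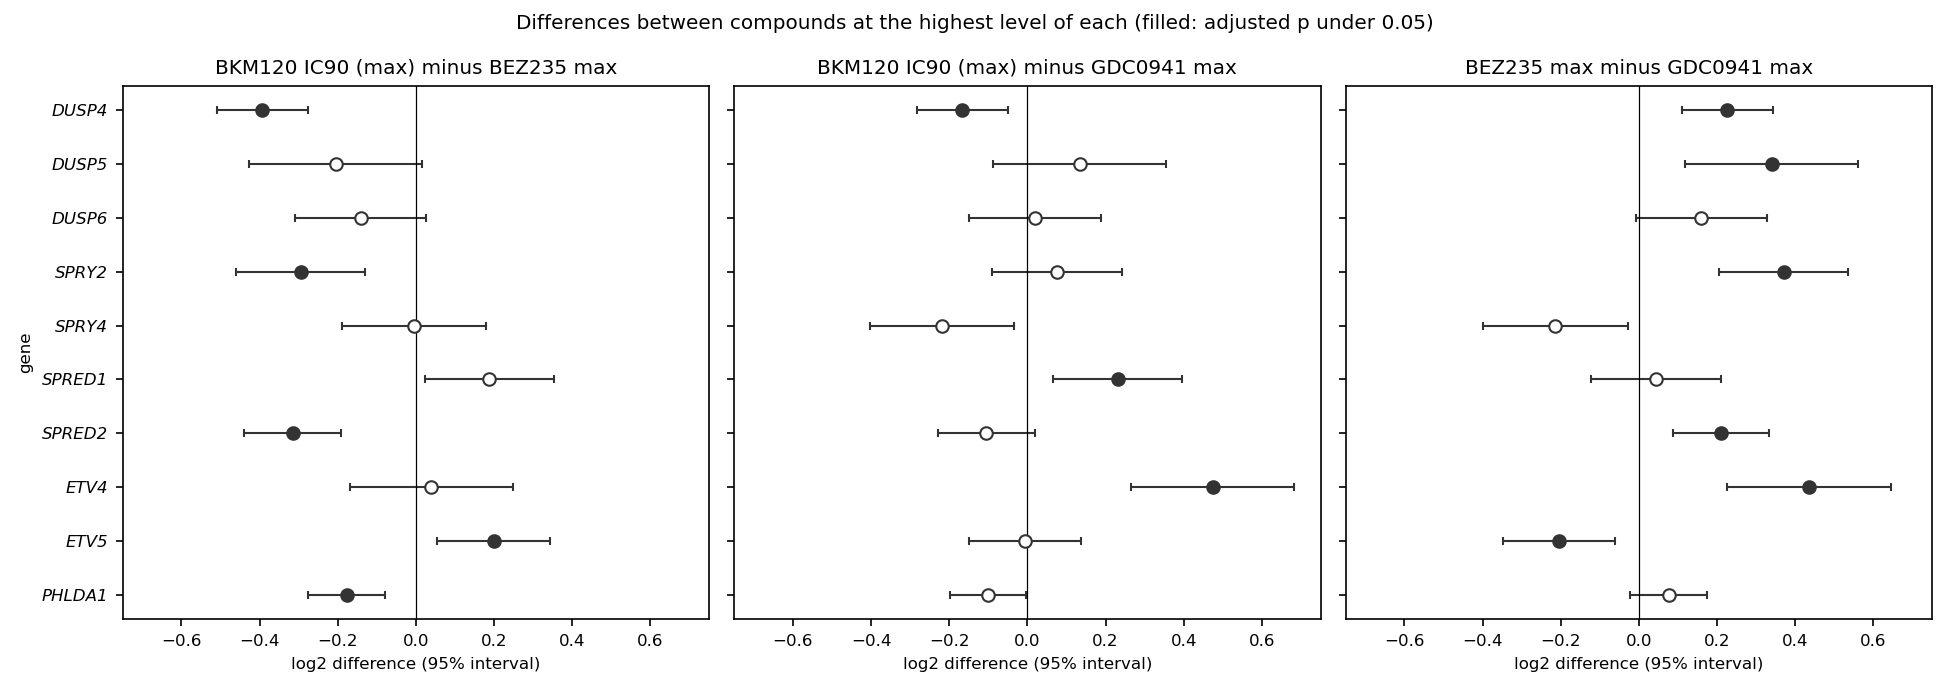
Log2 difference between compounds at the highest level of each, with its 95% interval, for the main probe set of each of the 10 genes; filled points passed an adjusted p of 0.05 in the fit of 40 arrays. In the left panel DUSP4, SPRY2, SPRED2 and PHLDA1 lie below 0, and ETV4 lies above 0 in the middle and right panels, at 0.47 and 0.44.

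At the levels named IC90, BKM120 (IC90 (max)) differed from BEZ235 in DUSP4 (-0.38), SPRED2 (-0.20) and PHLDA1 (-0.20), 3 of 10 beside 37.9% of all probe sets. It differed from GDC0941 in DUSP4 (-0.24), SPRY2 (0.23) and PHLDA1 (-0.25), 3 of 10 beside 27.0%, the SPRY2 call being lost in 6 of 8 fits without 1 array, those without BKM120 IC90 (max) replicate 1, 3 or 4 or GDC0941 IC90 replicate 1, 2 or 3 (0.19 to 0.23). BEZ235 differed from GDC0941 in SPRY2 (0.32) and SPRED2 (0.19), 2 of 10 beside 31.9%, and the SPRED2 call was lost without BEZ235 IC90 replicate 2 or GDC0941 IC90 replicate 1 (0.16 and 0.17).

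At the levels named IC50, BEZ235 differed from GDC0941 in 4 of 10 genes, beside 24.7% of all probe sets. DUSP4 (0.27), DUSP6 (0.28), SPRY2 (0.39) and PHLDA1 (0.15) were higher with BEZ235, where the DUSP6 call was lost without BEZ235 IC50 replicate 4 or GDC0941 IC50 replicate 1 (0.22 and 0.23) and the PHLDA1 call without GDC0941 IC50 replicate 3 (0.12). Without the degraded array 7 were higher, beside 23.9%, as SPRY4, SPRED1 and SPRED2 were added. BKM120 differed from BEZ235 in 1 gene, DUSP4 (-0.25), beside 22.6%, and in 2 with 39 arrays, beside 21.4%. Between BKM120 and GDC0941 none of the 10 was called by limma, beside 0.168% of all probe sets; 3 had an unadjusted p under 0.05, and DUSP6, at 0.32 (95% interval 0.15 to 0.49, adjusted p 0.0971), was called with 39 arrays, beside 1.57%.

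Within compounds, the step with most calls was that of BKM120 between IC50 and IC90 (max), at 4 of 10 genes beside 31.1% of all probe sets. DUSP5 rose by 0.39 (adjusted p 0.00583, limma), with 148.5, 131.8, 124.0 and 127.7 at IC90 (max) against 84.4, 113.6, 103.8 and 91.8 at IC50 and no overlap. PHLDA1 fell by 0.27 (adjusted p 2.57e-05), DUSP4 by 0.22 (adjusted p 0.00297) and DUSP6 by 0.21 (adjusted p 0.0467), also with no overlap. The DUSP6 call was lost in 6 of 8 fits without 1 array, those without BKM120 IC50 replicate 1, 2 or 4 or BKM120 IC90 (max) replicate 2, 3 or 4 (-0.23 to -0.16). Between BKM120 IC30 and IC50 none was called by limma, beside 0.00%, and 3 had an unadjusted p under 0.05.

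BEZ235 between IC50 and IC90 gave 3 calls, beside 19.4% of all probe sets: DUSP5 (0.33) was higher and ETV5 (-0.24) and PHLDA1 (-0.19) were lower at IC90. Without the degraded array, which is in the IC50 group, the DUSP5 change was 0.30 (adjusted p 0.0635) and the ETV5 change -0.12 (adjusted p 0.143, limma), and PHLDA1 and SPRY4 (-0.28) were called, beside 18.1%. The DUSP5 call was also lost without BEZ235 IC50 replicate 2 or BEZ235 IC90 replicate 2 or 3 (0.24 to 0.32) and the ETV5 call without BEZ235 IC90 replicate 3 (-0.21). The remaining steps gave no call of a main probe set by limma. They were BEZ235 IC90 to max (1.35% of all probe sets, 1 gene with an unadjusted p under 0.05), GDC0941 IC50 to IC90 (1.07%, 1 gene) and GDC0941 IC90 to max (6.06%, 2 genes).

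The step between IC50 and IC90 was also compared between compounds. It was lower with BKM120 than with GDC0941 in DUSP4 (-0.26, adjusted p 0.0217 from limma) and PHLDA1 (-0.28, adjusted p 0.00321), 2 of 10 beside 17.5% of all probe sets. The DUSP4 call was lost without BKM120 IC50 replicate 4, GDC0941 IC50 replicate 1 or GDC0941 IC90 replicate 2 (-0.23 to -0.22). Between BKM120 and BEZ235 no main probe set was called, beside 21.5%, with 1 at an unadjusted p under 0.05. With 39 arrays 2 were called, SPRY4 and DUSP4, beside 25.2%.

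Other genes of the cascade were read for comparison from lists chosen with earlier results of these data known. Of the 24 tested genes used elsewhere as ERK output, 1 rose and 12 fell at BKM120 IC30, 1 rose and 9 fell at BKM120 IC50, and 8 rose and 1 fell at BKM120 IC90 (max), with median log2 changes of -0.18, -0.08 and 0.11 against -0.01, -0.01 and 0.01 over all tested probe sets. Of all tested probe sets 12.6%, 12.5% and 30% were called at these levels. FOSL1, an AP-1 subunit, changed by -0.84, -0.83 and 0.91 over these 3 levels, and EPHA2, a receptor tyrosine kinase, by -0.88, -0.78 and 0.57, all called. EGR1, an immediate early factor, rose by 1.76 at BKM120 IC90 (max) and was not called at the lower levels.

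With GDC0941 none rose and 10 of the 24 fell at IC50, 2 rose and 8 fell at IC90, and 6 rose and 9 fell at max (medians -0.20, -0.08 and -0.12), beside 9.20%, 16.9% and 33.3% of all tested probe sets. With 39 arrays 1, 4 and 7 rose and 11, 8 and 9 fell over these levels, beside 15.5%, 24.6% and 40.8%. TNFRSF12A, the receptor of TWEAK, fell by 1.13, 1.19 and 1.11 over these levels, and LIF, a cytokine, by 0.71, 0.87 and 0.83. With BEZ235 6 rose and 2 fell at IC50, 8 rose and 8 fell at IC90, and 11 rose and 6 fell at max (medians 0.07, 0.07 and 0.17), beside 35.0%, 42.7% and 45.2%. With 39 arrays the counts were 7, 10 and 12 rises and 3, 8 and 6 falls with BEZ235, and 1, 2 and 10 rises and 13, 9 and 1 falls with BKM120. The shares of all tested probe sets in that fit were 32.6%, 50.0% and 52.0% with BEZ235 and 19.7%, 20.5% and 38.2% with BKM120. MYC rose by 1.26, 1.03 and 0.94 over the BEZ235 levels.

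**Figure D5:**
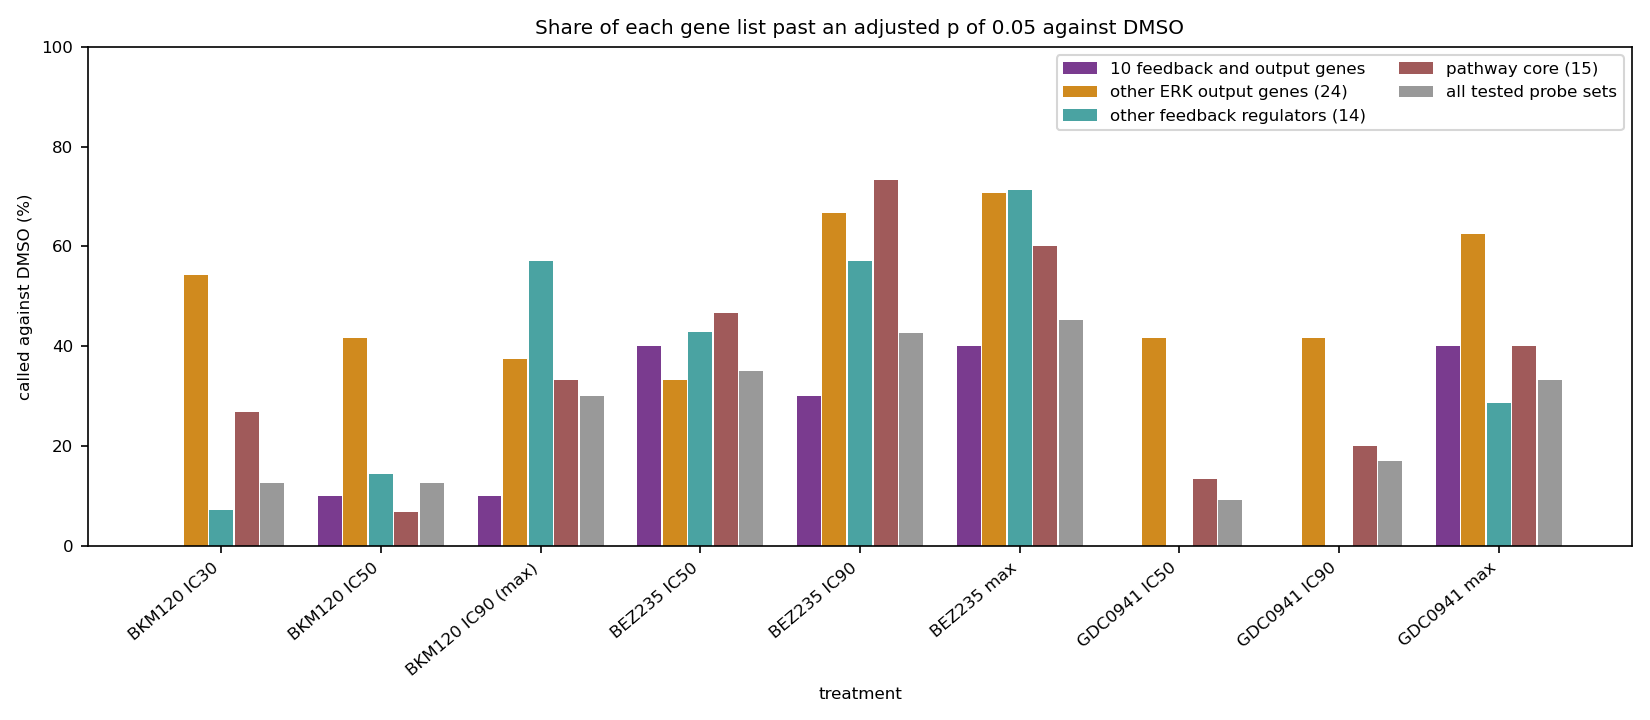
Share of genes called against DMSO (adjusted p under 0.05, 40 arrays) in each treatment for the 10 feedback and output genes, 24 other ERK output genes, 14 other feedback regulators and 15 genes of the cascade itself, with the share of all 32768 tested probe sets as the last bar of each group. The 10 genes stand at 0 to 40% and the other output genes at 33.3 to 70.8%.

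Of 14 further feedback regulators tested, 1, 2 and 4 rose and 0, 0 and 4 fell over the rising levels of BKM120, 3, 6 and 7 rose and 3, 2 and 3 fell over those of BEZ235, and 0, 0 and 4 rose and none fell over those of GDC0941, beside the same shares of all probe sets as above. With 39 arrays 1, 2 and 4 rose and 1, 2 and 4 fell with BKM120, 4, 6 and 7 rose and 1, 3 and 3 fell with BEZ235, and 0, 3 and 7 rose and 1, 1 and 1 fell with GDC0941. The shares of all tested probe sets in that fit were those given above for 39 arrays. SPRY1, the Sprouty protein outside the set, rose by 0.37 and 0.37 at BKM120 IC30 and IC50, fell by 0.38 at BKM120 IC90 (max), and rose by 0.30, 0.52 and 0.63 over the levels of BEZ235. DUSP10, a phosphatase of stress-activated kinases, rose by 0.50 and 0.74 at BEZ235 IC90 and max. LRIG1, an inhibitor of receptor tyrosine kinases, fell by 0.58 at BKM120 IC90 (max) and by 0.52 at BEZ235 max.

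Of 15 tested genes of the cascade itself, 1, 1 and 1 rose and 3, 0 and 4 fell with BKM120, 1, 3 and 3 rose and 6, 8 and 6 fell with BEZ235, and 1, 2 and 3 rose and 1, 1 and 3 fell with GDC0941, each over rising levels and beside those shares. In the fit of 39 arrays 1, 2 and 1 rose and 3, 0 and 5 fell with BKM120, 2, 3 and 3 rose and 10, 9 and 8 fell with BEZ235, and 1, 2 and 3 rose and 1, 2 and 4 fell with GDC0941. These counts stood beside the shares of all tested probe sets given above for 39 arrays. MAP2K1, the kinase that activates ERK, fell in 7 of the 9 treatments, by 0.47 at BKM120 IC90 (max), 0.45 at BEZ235 max and 0.28 at GDC0941 max. RPS6KA3, a kinase directly downstream of ERK, fell by 0.28, 0.77 and 0.36 in the same order. SOS2, an exchange factor of RAS, rose by 0.32 at BEZ235 max and 0.40 at GDC0941 max.

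The genes whose group means were most like those of a member were taken by Pearson correlation over the 10 groups, which share arrays, scale and the DMSO group, among 25548 probe sets of other genes. The closest were COG1 (0.992), PLPBP (0.988) and ZNF621 (0.985) for SPRED2, IMPA1 (0.967) for ETV4, ST7L (0.965) for SPRY2, HTRA1 (0.958) for ETV5, SOD2 (0.957) for DUSP4, INPP5B (0.952) for DUSP5, PPM1G (0.949) for PHLDA1, TICAM1 (0.942) for DUSP6, CASP8 (0.938) for SPRY4 and PRIM2 (0.918) for SPRED1. When the degraded array was left out, the closest gene was the same for DUSP5, DUSP6, SPRY4 and SPRED1 and another for the rest, and the correlations of the closest genes named here lay between 0.848 (PPM1G) and 0.98 (COG1). Each closest gene had the highest correlation among the 25548 candidates, over only 10 group means. How high such a value would be by chance was not tested. The probe sets of CASP8 and INPP5B were dim, with mean log2 signals of 4.59 and 4.83, close to the filter on dim probe sets. No member was compared with another member in this search. Across all 10 genes, 78 of the 90 neighbouring pairs in the orders of group means differed by no more than the larger SD of the pair, also 78 of 90 without the degraded array.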

How the data were processed

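RNA of A2058 cells was amplified, labelled with 1 colour and hybridised to oligonucleotide arrays; 40 arrays in 10 groups of 4 were grouped by the labels. The deposited values are linear intensities per probe set that the authors made with MAS5, per the submitters' processing notes (its version is not given in the sources used here), and in every column the mean without the highest and lowest 2% was 150. The number of arrays limits the precision. The members and lists were chosen with earlier results of these data known.

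Values were taken as log2(signal + 16), so changes of dim probe sets are understated. Of 54675 probe sets, 41091 had 1 gene symbol in the platform annotation, 1801 several and 11721 none, beside 62 control probe sets; 32768 with a mean above the 40th percentile (log2 of at least 4.48) were tested. limma 3.58.1 in R 4.3.3 fitted 10 group means (30 residual degrees of freedom, trended variance) and 26 comparisons, with Benjamini-Hochberg adjustment within each over all tested probe sets; all tests are two-sided. The fit was tested on simulated data.

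All 10 genes were named in every comparison, each by its probe set of highest mean signal (the main probe set). Of the other lists, genes came from the up to 6 called with the largest change in a comparison, and similar patterns from the 3 highest correlations per gene. Same-numbered replicates of different groups were not paired: over 180 pairs the correlation of deviations from group means ran from -0.281 to 0.265 (median -0.00926), and 14 were over 0.1. No 2 arrays were identical. Alternatives were other pseudocounts, filters, normalization, gene summary, variance model, arrays in the fit, a replicate block and leaving out each array.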

Additional observations from a re-analysis of the deposited data

Results flagged for a closer look

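In 12 of the 100 groups of 4 arrays (10 genes in 10 groups), 1 array stood far from the other 3 in log2(signal + 16) by Dixon's criterion, which chance alone meets in about 1 in 20 groups; on the linear signal 11 groups met it. ETV5 held 4 of the 12, each in replicate 3. Its signal was 3511 at BEZ235 IC50 (others 2481.4 to 2534.3, the array with degraded RNA), 2880.8 at GDC0941 max (others 2368.9 to 2409.1), 2163 at BEZ235 IC90 (others 2346.3 to 2385.9) and 2113.9 at BEZ235 max (others 2178.8 to 2191.7).

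SPRY2 had 696.1 in replicate 1 of BKM120 IC30 (others 790.2 to 798) and 824.5 in replicate 2 of BKM120 IC90 (max) (others 992 to 1005.6). ETV4 had 403.6 in replicate 4 of GDC0941 IC50 (others 257.9 to 270.3) and 263.2 in replicate 1 of BKM120 IC50 (others 309.3 to 317.5). PHLDA1 had 1516.6 in replicate 3 of BEZ235 IC90 (others 1750.5 to 1755.7) and 1859.9 in replicate 1 of BEZ235 IC50 (others 1947.4 to 1953.2). DUSP6 had 1259.9 in replicate 1 of BEZ235 max (others 1538.1 to 1594.2), and SPRY4 had 366.9 in replicate 1 of BEZ235 IC90 (others 406.6 to 407.6).

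The change between the levels IC50 and IC90 differed between BKM120 and GDC0941 for DUSP4, by -0.258 on the log2 scale (adjusted p 0.0217, limma), and for PHLDA1, by -0.276 (adjusted p 0.00321), as BKM120 minus GDC0941. Molar doses behind these levels were not at hand.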

How the results depend on the processing

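Of the 53 called values, 27 kept their call and direction under all 11 other settings and 22 of these also under every fit without 1 array. Pseudocounts of 1 and 64 and the robust variance model moved no count of called genes by over 1.5 times; with a pseudocount of 1 DUSP5 at BEZ235 max and SPRED1 at GDC0941 max lost their call. Quantile normalization gave 1 called gene at BKM120 IC30, 2 at BKM120 IC50, 2 at BKM120 IC90 (max) and 2 at GDC0941 IC90 against DMSO, 4 for BEZ235 against GDC0941 at IC90, 1 for GDC0941 max against IC90 and 2 for the step of BKM120 against BEZ235. With the mean over a gene's probe sets the counts were 1 at BKM120 IC30, 0 at BKM120 IC90 (max), 1 at GDC0941 IC50, 1 at GDC0941 IC90 and 2 at GDC0941 max against DMSO; between compounds 2 (BKM120 against BEZ235) and 1 (BKM120 against GDC0941) at IC50, and 5 (BKM120 against BEZ235), 1 (BKM120 against GDC0941) and 4 (BEZ235 against GDC0941) at IC90; and 1 for the step of BKM120 against GDC0941. That summary reversed 5 values: ETV5 at BEZ235 IC90 (-0.218), SPRED1 at GDC0941 max (0.00989), DUSP6 for BKM120 against BEZ235 at IC50 (-0.134), PHLDA1 for BEZ235 against GDC0941 at IC90 (0.218) and PHLDA1 for BEZ235 IC90 against IC50 (0.00793); their other probe sets differ from the main one. Fits of only the groups compared, which have fewer arrays, gave 2, 2 and 2 for rising levels of BKM120, 1 for BEZ235 IC50 and 2, 1 and 2 for rising levels of GDC0941 against DMSO; 0 (BKM120 against BEZ235), 1 (BKM120 against GDC0941) and 1 (BEZ235 against GDC0941) at IC50; 5 for BKM120 against BEZ235 at IC90; 0 for BEZ235 IC90 against IC50 and 1 for GDC0941 max against IC90. Without a filter BKM120 IC50 gave 0 and GDC0941 max 2, and GDC0941 max against IC90 gave 1 with the stricter filter and 1 with 1 probe set per gene. The cause was not tested.

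Without the degraded array the counts against DMSO were 3, 2 and 2 for rising levels of BKM120, and 2 and 3 for GDC0941 IC50 and IC90; they were 2, 1 and 7 for BKM120 against BEZ235, BKM120 against GDC0941 and BEZ235 against GDC0941 at IC50, 1 for GDC0941 max against IC90 and 2 for the step of BKM120 against BEZ235. Leaving out in turn each array of the groups compared, and no other, gave, against DMSO, 0 to 1, 0 to 1 and 1 to 2 for BKM120, 3 to 5, 1 to 3 and 3 to 4 for BEZ235, and 0 to 1, 0 to 0 and 2 to 4 for GDC0941, over rising levels. Between compounds it gave 1 to 2 (BKM120 against BEZ235), 0 to 1 (BKM120 against GDC0941) and 3 to 7 (BEZ235 against GDC0941) at IC50, 3 to 3, 2 to 3 and 1 to 3 at IC90 and 4 to 6, 1 to 3 and 5 to 7 at the highest level. For steps it gave 0 to 0 and 3 to 4 for BKM120, 1 to 3 and 0 to 0 for BEZ235, and 0 to 0 and 0 to 1 for GDC0941, and 0 to 2 and 1 to 3 for the step of BKM120 against BEZ235 and against GDC0941. The replicate block, for numbers that do not pair the arrays (5 of 40 arrays were closest to their own number), moved none of the 26 counts by over 1.5 times; SPRY4 at BEZ235 IC50 (0.23, adjusted p 0.057), DUSP5 at BEZ235 max (0.262, 0.0504), SPRED1 at GDC0941 max (-0.205, 0.0517) and DUSP6 for BKM120 IC90 (max) against IC50 (-0.214, 0.0527) lost their call under it, and DUSP4 for BEZ235 against GDC0941 at IC90 (0.143, 0.0471) gained one.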
